A study of Oncorhynchus kisutch with 206 samples.

Results

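The brain of juvenile coho salmon (Oncorhynchus kisutch) was profiled from river life to the first months at sea, and the 150 microarray probes described here had a higher mean at each step from parr through smolts, spring, summer and fall. They were chosen among the 10942 probes with a value on every array, of 43630 on the table. For each season label the mean was taken, and 623 probes (5.69%) had all 4 steps above 0. The 150 with the largest smallest step are the members. The members were thus chosen by the season means from parr to fall, which are given as a description, without a test.

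Each array held 1 fish against a pool made from all brain samples, in 2 colours. The fish were 5 parr, 51 smolts, 12 spring, 51 summer, 78 fall and 9 winter fish. All 5 parr were Chilliwack hatchery fish of 2008, with fork lengths from 4.7 to 5.5 cm. The smolts were 16 Chilliwack fish of 2008 and, in 2009, 10 from Capilano, 8 from Chehalis, 8 from Puntledge and 9 from Salmon. They were 33 hatchery and 18 wild fish. Chilliwack gave 10 hatchery and 6 wild smolts and Capilano 7 and 3. All Chehalis and Puntledge smolts were hatchery fish and all Salmon smolts were wild. All 12 spring fish were wild and came from the southern Strait of Georgia in 2009. Summer and fall fish were caught in 2008 and 2009 in the north-mid Strait, the southern Strait and off the west coast of Vancouver Island, with no summer fish from the west coast in 2008 and no fall fish from the southern Strait in 2008. Among these 129 fish, 54 were hatchery and 75 wild, and 59 were labelled male and 60 female. The winter fish of 2009 were 6 from the west coast and 3 from the north-mid Strait. These winter fish were 4 hatchery and 5 wild, and 4 female and 5 male. All 3 from the north-mid Strait were wild males. The seasons are different fish, and season, length, year and place differ together among them. Nothing in the labels links fish of different seasons.

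Coho salmon hatch in fresh water and live there as parr, camouflaged young fish that hold territories. In the parr-smolt transformation they turn silver, become able to regulate salts in sea water and migrate downstream, under the control of hormones such as thyroid hormone, cortisol and growth hormone. The brain reads day length and directs these changes through the pituitary, and the first summer and fall at sea are a time of fast growth.

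The probes carry position names on the array (C for column, R for row). Their genes and sequences are not named here, and the brain label was not checked against marker genes. In bulk tissue, a change in the share of a cell type and a change in RNA per cell cannot be told apart. The values are likely log2 of the fish's signal over that of the pool, although the labels state neither the direction nor the log base. Read the other way, the same probes would fall from parr to fall. A natural log is not excluded, and folds would then be larger.

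Array medians lay from -0.11 to 0.19, the SD over probes from 0.51 to 1.61 and the share of empty values from 16.6% to 57.6%. The arrays lay on 61 slides with 1 to 4 arrays each, and 47 slides held more than 1 season. The 5 parr lay on 3 slides, with 3 of them on 1 slide. Over the probes with a value on every array, pairs of arrays correlated from -0.49 to 0.92, and 1.12% of the pairs lay below -0.3.

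The median of the members' means was -1.23 in parr, -0.72 in smolts, -0.47 in spring, -0.13 in summer and 0.29 in fall. All 150 were below the pool in parr and 29 were below it in fall. The median step was 0.52 from parr to smolts, 0.23 from smolts to spring, 0.28 from spring to summer and 0.37 from summer to fall. From parr to fall the median difference was 1.54 (2.90-fold), with a range from 0.59 to 3.62. The step from smolts to spring was the smallest one in 71 members, and the step from parr to smolts in 8. The choice was a sharp line through a continuum: the smallest step was 0.1153 and 0.1152 in the last 2 members and 0.1147 and 0.1139 in the first 2 probes left out.

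C050R100 had the largest smallest step (0.39). Its parr values were -3.09, -3.20, -2.75, -2.88 and -2.58. In smolts the median was -1.70 (lowest -4.98, highest 0.44), and in spring fish -1.35 (lowest -2.23, highest -0.87). The median was -0.56 in summer fish (lowest -3.38, highest 0.93) and 0.13 in fall fish (lowest -2.59, highest 3.92). The smolts spanned the parr values and most of the fall values, so the order of the means was not an order of single fish. C048R088 was second (0.39). Its parr values were -2.53, -2.76, -2.54, -2.30 and -3.01, and its fall median was 0.33 (lowest -3.66, highest 4.43).

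Single probes seldom separated the fish. All 5 parr lay below all 78 fall fish in 5 members, against 16 of the 10942 probes with a value on every array (0.146%); the choice used this contrast, so nothing is read from the count. In 142 members all 5 parr lay below the fall median. That count was not taken over all probes and rests on the same contrast, so nothing is read from it either. C045R015 was 1 of the 5: its parr values ended at -0.82 and its fall values began at -0.75. A set of 9 members, picked after their values were seen, lay low, with spring means below -2, parr means from -4.94 to -3.77 and fall means from -2.56 to -1.02.

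The mean over the members in each fish followed the same order with wide overlap. It was -1.45 ± 0.25 (SD, n = 5) in parr, -0.87 ± 0.28 (SD, n = 51) in smolts and -0.60 ± 0.14 (SD, n = 12) in spring. It was -0.26 ± 0.33 (SD, n = 51) in summer and 0.16 ± 0.32 (SD, n = 78) in fall. Of the smolts, 38 of 51 lay above all parr. None of the 12 spring fish lay above all smolts, 32 of 51 summer fish lay above all spring fish, and 7 of 78 fall fish lay above all summer fish.

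The smolt rivers covered much of the distance from parr to spring. The mean over the members was -1.15 ± 0.17 (SD, n = 16) in Chilliwack smolts, the river and year of the parr, and -0.90 ± 0.16 (SD, n = 10) in Capilano smolts. It was -0.82 ± 0.21 (SD, n = 8) in Chehalis, -0.62 ± 0.12 (SD, n = 8) in Puntledge and -0.59 ± 0.19 (SD, n = 9) in Salmon smolts. The means of Puntledge and Salmon smolts thus lay close to that of the spring fish, while single Salmon smolts ran from -0.95 to -0.29 and spring fish from -0.84 to -0.36. Between Chilliwack parr and Chilliwack smolts of 2008, 122 of 150 members had the higher mean in smolts, against 49.1% of the probes with a value on every array. Set against the spring fish, 139 members were higher in spring than in Chilliwack smolts (50.2%), 123 than in Capilano smolts (48.6%) and 112 than in Chehalis smolts (47.4%). For Puntledge the count was 79 (45.3%) and for Salmon 71 (38.7%). The parr, smolts and spring fish of these counts entered the season means that chose the members. The counts are therefore a description, and no support is read from the distance to the shares over all probes. Within rivers, the mean over the members had a correlation of 0.54 with the share of empty values on the array (51 smolts sharing slides), and its part in the river order was not tested. Origin also differed among the rivers, and the part of origin in their order was not tested. Chilliwack was the only river of 2008, so river and year cannot be told apart for its smolts.

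At sea, most members kept the order within a place. In the southern Strait in 2009, 110 members were higher in summer than in spring (52.4% of the probes with a value on every array) and 145 higher in fall than in summer (49.2%). From summer to fall, 142 were higher off the west coast in 2009 (53.8%), 116 in the north-mid Strait in 2008 (51.3%) and 107 there in 2009 (48.8%). These counts share fish with the choice and are a description. The mean over the members in north-mid Strait summer fish was -0.53 ± 0.13 (SD, n = 5) in 2008 and -0.11 ± 0.28 (SD, n = 29) in 2009. In the southern Strait it was -0.66 ± 0.04 (SD, n = 3) in 2008 and -0.36 ± 0.26 (SD, n = 6) in 2009, and off the west coast -0.40 ± 0.43 (SD, n = 8), or -0.26 ± 0.23 (n = 7) without fish 2314. In fall it was 0.26 ± 0.50 (SD, n = 11) in the north-mid Strait (0.12 ± 0.22, n = 10, without fish 766) and 0.07 ± 0.39 (SD, n = 17) off the west coast in 2008. In fall 2009 it was 0.13 ± 0.22 (SD, n = 21) in the north-mid Strait, 0.15 ± 0.25 (SD, n = 22) in the southern Strait and 0.31 ± 0.25 (SD, n = 7) off the west coast. The summer sets thus differed more among each other than the fall sets did, whose spreads overlapped. Within place and year, this mean had a correlation with the mean over all probes with a value on every array. It was 0.32 in summer fish and 0.49 in fall fish. With the SD of the array the correlation was -0.08 in summer and -0.31 in fall. The part of these array measures in the differences among sets was not tested.

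Winter was not part of the choice, although its comparison shares the fall fish. In winter 90 of 150 members had a mean above that in fall (46.8% of the probes with a value on every array), with a median difference of 0.10. The mean over the members was 0.22 ± 0.35 (SD, n = 9), with 0.37 ± 0.26 (SD, n = 6) off the west coast and -0.08 ± 0.32 (SD, n = 3) in the north-mid Strait. It was 0.44 ± 0.22 (SD, n = 4) in winter females and 0.05 ± 0.34 (SD, n = 5) in winter males. Place, sex and origin differ together among these fish. Within the west coast in 2009, 79 members were higher in winter than in fall (43.6%), and within the north-mid Strait 56 (43.8%). C038R008 had the highest difference, 1.93 above fall. Its winter values were -5.76, 1.67, 4.29, 1.05, 1.14, 2.75, 2.78, -5.09 and 2.72, so 2 fish lay far below the other 7. C199R092 had the lowest, 1.22 below fall on the log2 scale, and all its 9 winter values lay between -1.68 and -0.11. In fall this probe averaged -0.62 off the west coast (n = 24) and 0.49 in the north-mid Strait (n = 32). As 6 of the 9 winter fish were from the west coast, place and season mix in its difference, and the part of place was not tested.

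Length was examined within place and year, so that the season steps did not enter. Because place and year make up the seasons in unequal parts, and fish of the same seasons chose the members, the comparison is not wholly free of the choice. In summer 143 of 150 members had a positive slope on fork length, against 57.7% of the probes with a value on every array. The median slope was 0.074 per cm, and no single member passed the test (limma, Benjamini-Hochberg over 36889 probes, of which 0.00542% passed); 46 members had an unadjusted p under 0.05 (8.14% of all probes). In fall 128 members had a positive slope (48.3%), and the median slope was 0.029 per cm. One member, C033R041, passed in fall (0.166% of all 36731 probes and 0.338% of those with a value on every array passed), with a slope of 0.081 per cm (SE 0.019, limma adjusted p = 0.04). Without the 17 west coast fall fish of 2008, which spanned the lengths from 16.0 to 32.8 cm, its slope was 0.024 (limma adjusted p = 0.847) and 102 members were positive (49.2%). No member passed in the difference between the slopes of fall and summer (0.00273% of 36598 probes passed), where 15 had an unadjusted p under 0.05 (6.15% of all probes). The unadjusted shares here were not taken over the probes with a value on every array, from which the members came.

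The positive slopes did not come from every set of fish. In summer 2009, 138 members were positive in the north-mid Strait (29 fish, 57.5% of the probes with a value on every array). The count was 126 off the west coast (8 fish, 50.3%) but 74 in the southern Strait (6 fish, 46.7%). In north-mid Strait summer fish of 2008 it was 92 (5 fish, 53.6%). In fall, 127 were positive in the north-mid Strait in 2008 (53.2%) and 125 in 2009 (46.8%). Off the west coast 108 were positive in fall 2008 (17 fish, 47.3%) and 103 in fall 2009 (7 fish, 54.5%). In the southern Strait 76 were positive in fall (22 fish, 45.8%). Slopes of single members ran from -0.04 to 0.20 per cm in summer and from -0.08 to 0.19 in fall. In smolts 70 of 150 members had a positive slope (54.3%), and no probe passed the test by limma (0 of 35046, 0.0%, with 1976 at an unadjusted p under 0.05). Within place and year, length had a correlation with the SD of the array of -0.15 over all summer fish and 0.01 over all fall fish. In single sets it was -0.65 in west coast summer fish (n = 8), -0.82 in southern Strait summer fish of 2009 (n = 6), 0.05 in north-mid Strait summer fish of 2009 and -0.31 in west coast fall fish of 2008. The part of array spread in the slopes was not tested.

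Place was not free of the choice: the summer and fall fish compared here entered the season means. West coast fish were 24 of the 78 fall fish and 8 of the 51 summer fish, and none of the spring fish. The counts of members between places, in fall and in summer, are therefore a description. Between the west coast and the north-mid Strait, 17 members passed the test in fall, 5 higher and 12 lower off the west coast (limma over 28329 probes, of which 8.37% passed). Of the probes with a value on every array, from which the members were drawn, 13.8% passed, 4.75% higher and 9.08% lower. The members' share of 11.3% was near that background. The balance of the directions among the members changed with the fish and the processing. Over all probes 797 were higher and 1573 lower in the main fit. Without fall fish 766 of the north-mid Strait, 24 members passed, 13 higher and 11 lower (8.66% of all probes, 876 higher and 1571 lower). With the slide as a fixed term 4 members were higher and 4 lower (2.76% of all probes, 296 higher and 475 lower). With array weights 15 members were higher and 17 lower (15.5% of all probes, 1776 higher and 2607 lower). With fork length as a term 3 members were higher and 17 lower (8.92% of all probes, 906 higher and 1621 lower). C199R092 was lower off the west coast by 0.97 on the log2 scale (SE 0.15, limma adjusted p = 2.78e-06). Its values averaged -0.62 ± 0.49 (SD, n = 24) off the west coast and 0.49 ± 0.66 (SD, n = 32) in the Strait, and all 24 west coast fish lay below the Strait mean. C153R056 differed by -0.80 (SE 0.18, limma adjusted p = 0.00128). In the other direction, C225R077 was higher by 0.71 (SE 0.21, limma adjusted p = 0.0189) and C029R011 by 0.68 (SE 0.15, limma adjusted p = 0.000949). For C153R056, 12 of 24 west coast fish lay below all 32 Strait fish and 17 below the Strait mean, while for C199R092 3 lay below all Strait fish.

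In summer 2009, 2 members passed, both lower off the west coast (limma over 33089 probes, of which 0.293% passed; 0.548% of those with a value on every array, 0.521% lower). In C031R051 the difference was -0.94 (SE 0.23, limma adjusted p = 0.0346), and in C045R015 it was -0.85 (SE 0.19, limma adjusted p = 0.016). In fall C031R051 was also lower off the west coast, at -0.61 (SE 0.17, limma adjusted p = 0.00977), while C045R015 was higher, at 0.48 (SE 0.14, limma adjusted p = 0.0138). The difference between these seasons was not tested. Without summer fish 2314 neither passed in summer, with estimates of -0.82 and -0.72 (limma adjusted p = 0.235 and 0.191). The summer fish of 2009 had a median fork length of 15.7 cm off the west coast (n = 8) and 18.2 cm in the north-mid Strait (n = 29). With fork length as a term no member passed in summer (0.0816% of all probes). The part of length in the difference was not tested. Between the southern and the north-mid Strait in fall 2009 no probe passed by limma (0 of 31913, 0.0%, with 1296 at an unadjusted p under 0.05).

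The years are not free of the choice: all parr were of 2008, 16 of 51 smolts were, and all spring fish were of 2009, and the summer and fall fish compared here entered the season means. The counts of members below are therefore a description. Between the years, 12 members passed in fall, all higher in 2009 (limma over 28329 probes, of which 3.99% passed). Of the probes with a value on every array 4.99% passed, 4.22% higher, and of the members 8.0%. Some other settings also called members lower. With no slide term 16 members were higher and 2 lower (8.43% of all probes passed), and with array weights 30 and 9 (22.3%). Quantile normalization gave 13 and 1 (5.78%), scaled arrays 13 and 2 (5.47%) and fork length as a term 8 and 1 (2.73%). Without fish 766 or fish 2314 all called members were higher (3.55% and 4.39%). C007R144 was higher by 1.42 (SE 0.45, limma adjusted p = 0.0483) and C078R054 by 1.11 (SE 0.20, limma adjusted p = 0.00097). C078R054 averaged 0.28 ± 0.68 (SD, n = 28) in 2009 and -0.95 ± 0.64 (SD, n = 28) in 2008, and 26 of the 28 fish of 2009 lay above the 2008 mean. C007R144 had single fish far below the others, down to -7.50 in the north-mid Strait in 2008. Only 1 slide held fall fish of both years from these places, so year and slide cannot be told apart; with the slide as a fixed term no member passed. The coast difference between the years had no member past the test (0.0212% of 28329 probes passed).

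In Strait summer fish 22 members passed, 20 higher and 2 lower in 2009 (limma over 21634 probes, of which 8.87% passed). Of the probes with a value on every array 9.5% passed, 6.85% higher and 2.65% lower, and of the members 14.7%. In all, 109 of 150 had a positive estimate (57.4% of those probes). C217R087 was higher by 2.19 (SE 0.56, limma adjusted p = 0.00643). In 2008 its values were -1.93, -4.32, -1.12, -1.09 and -4.56 in the north-mid Strait and -2.51, -4.82 and -1.17 in the southern Strait. Its mean in 2009 was -0.25 ± 1.00 (SD, n = 35), with 27 of these fish above all fish of 2008. C063R067 was higher by 2.02 (SE 0.49, limma adjusted p = 0.00393), with 30 of 35 fish above all fish of 2008. Each of these 2 probes lost its call in 2 of 9 other settings, with limma adjusted p up to 0.646 in C217R087 and 0.192 in C063R067. C209R090 was lower in 2009 by 0.71 on the log2 scale (SE 0.22, limma adjusted p = 0.024) and C172R106 by 0.64 (SE 0.22, limma adjusted p = 0.0468). Neither lower call held under quantile normalization (limma adjusted p = 0.135 and 0.121), with each array scaled (0.228 and 0.159), with the slide as a fixed term (0.805 and 0.523) or with array weights (0.412 and 0.172), and no member was called lower under any of these 4. The arrays of the 8 fish of 2008 had a wider spread: the median SD over probes was 1.01 and 0.91 in the 2 places in 2008, and 0.70 and 0.76 in 2009. Only 2 slides held summer Strait fish of both years, and with the slide as a fixed term 2 members passed, with array weights 1.

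Neither origin nor sex gave a call. In summer and fall fish, hatchery against wild had no probe past the test by limma (0 of 36739, 0.0%, with 4576 or 12.5% at an unadjusted p under 0.05, 22 of them members). The median difference of the members was -0.03, and 66 of 150 were higher in hatchery fish (46.1%). In smolts no probe passed by limma (0 of 33566, 0.0%, with 2682 or 7.99% at an unadjusted p under 0.05, 14 of them members), and 50 of 150 were higher in hatchery fish (58.2%). Only the Chilliwack and Capilano smolts held both origins, so this comparison within rivers rested on them. Males against females gave 0 of 36888 by limma (0.0%), with 1103 or 2.99% at an unadjusted p under 0.05, 3 of them members. The mean over the members was 0.14 ± 0.29 (SD, n = 36) in fall males and 0.18 ± 0.36 (SD, n = 41) in fall females.

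Over the 13 tests, 47 members passed at least 1 and 103 none. The lists of the coast in fall and of the year in Strait summer shared 2 members (2 of 17 and 2 of 22), and those of the year in fall and in Strait summer shared none. The same counts were not taken over all probes, so nothing about the members is read from them.

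The members were not a block that moved as one among like fish. With the mean of each place, year and season taken away, the median correlation of member pairs was 0.11 over all fish, against 0.02 for all pairs of probes with a value on every array, and 70.7% of member pairs were above 0 against 53.6%. These correlations share arrays and their technical variation. The SD within such sets had a median of 0.64 in members and 0.57 in the probes with a value on every array. Of 11175 member pairs, 61 had a correlation above 0.7, which linked 36 members into 8 groups. The largest held 12 probes, with C063R067 and C217R087 among them; it was picked after its values were seen and gets no test. The mean over these 12 was -1.93 ± 0.44 (SD, n = 5) in parr and 0.11 ± 1.13 (SD, n = 78) in fall. In Chilliwack smolts of 2008, the river and year of the parr, it was -1.81 ± 0.76 (SD, n = 16). From summer to fall it did not rise in every place. In fall 2009 it was -0.17 ± 0.92 (SD, n = 21) in the north-mid Strait, below the summer fish there. It was higher in fall than in summer in the southern Strait and off the west coast in 2009, and in the north-mid Strait in 2008. It was -1.88 ± 0.99 (SD, n = 5) in north-mid Strait summer fish of 2008 and 0.12 ± 0.52 (SD, n = 29) in those of 2009. The other 138 members stood at -0.41 ± 0.19 and -0.13 ± 0.27 (SD) in the same fish. In southern Strait summer fish the mean over the 12 was -1.84 ± 1.27 (SD, n = 3) in 2008 and -0.97 ± 0.83 (SD, n = 6) in 2009. Of the 22 members that passed between the years in Strait summer, 7 belonged to these 12 and 15 to the other 138. Of the probes with a value on every array 9.5% passed there. The 12 were linked by their correlation among like fish, so their calls are not separate results. Nothing is read from this count.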

How the data were processed

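Brain RNA of each fish was coupled to Alexa 555 and a pool of all brain samples to Alexa 647, with no dye swap, per the labels' protocols. How spots were extracted, normalized and filtered is not stated by the labels. The deposited table was taken to hold log2 ratios. With probes split by variance into 10 classes, the mean ratio (back-transformed, then log2) stayed between 0.06 and 0.17 read as fish over pool and ran from -0.02 to 1.10 read as pool over fish. Read as natural logs it ran from 0.20 to 0.49 and as log10 from 1.24 to 3.11. A second deposited table, with a value column for each array, was not used here. No depth applies to arrays; their number limits the precision.

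Each fish number was taken as a separate animal, and the labels give no separate cultures or pools. The members, lists and tests were chosen with earlier results of these data known. Tests used limma 3.58.1 in R 4.3.3 on 129 summer and fall fish, 119 with a sex label or 51 smolts, with place and year as terms, slide as a random block (correlation 0.12 to 0.15, from 2000 probes), at least 3 values on each side and Benjamini-Hochberg adjustment at 0.05 over all probes tested. Named probes are the 2 top members, at most 2 called members in each direction per test, and the winter extremes. The gene lists and cell type markers could not be tested, as probes have no gene names. The code was tested on simulated data with 200 changed probes, noise independent between probes and a slide correlation of 0.2. Fewer probes changed there than passed between the coasts in fall, so the recovered shares need not hold for the data. Differences of 1.0 between coasts in fall were recovered in 93.0% and of 0.5 in 28.6% (28329 probes tested), and 6 of 77 calls were false. Sex differences of 1.0 were recovered in 84.7% and of 0.5 in 57.8% (36888 probes tested). Smolt origin differences of 1.0 were recovered in 36.6% and of 0.5 in 2.4% (33566 probes tested). Fall length slopes of 0.2 per cm were recovered in 93.8% and of 0.05 in 10.1% (36731 probes tested).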

Additional observations from a re-analysis of the deposited data

Results flagged for a closer look

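A fish was flagged where its gap to the nearest other fish was large against the range of its set of 4 to 10 fish. Of 187 sets looked at, 19 were flagged, where chance flags about 1 in 20; many sets share fish. The mean over the members in summer fish 2314 from the west coast was -1.33, below the other 7, and it held the lowest value of its season in 38 members, with an array SD of 1.05. That count was not taken over all probes, so nothing about the members is read from it. The same fish was low in C209R090 (-1.02) and in C217R087 (-3.07).

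In smolts, C007R144 stood apart in Chehalis fish 1621 (0.19), C033R041 in Capilano fish 1530 (-2.28), C038R008 in Puntledge fish 1690 (-5.89) and C045R015 in Capilano fish 1535 (1.75) and Chehalis fish 1617 (-1.41). C063R067 did so in Capilano fish 1530 (-3.08), C153R056 in Puntledge fish 1684 (0.73) and C199R092 in Salmon fish 1438 (-3.78). C209R090 did so in Puntledge fish 1690 (-1.54) and C217R087 in Puntledge fish 1685 (-2.86).

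At sea, C007R144 stood at -8.38 in north-mid Strait summer fish 502 of 2008. In winter, C029R011 stood apart in fish 4213 (2.00), C031R051 in fish 4207 (-1.70), C038R008 in fish 4217 (-5.09), C050R100 in fish 4215 (0.0078) and C063R067 in fish 4217 (-1.27).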

How the results depend on the processing

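Of the 150 members, 75 would have been chosen from medians, 86 with each place and year weighted equally, 79 from fish of 2009 with the parr and 79 with at least 3 values per season as the filter. Under these settings 131, 111, 106 and 150 members still rose at every step. Leaving out each parr kept 130 to 142. With the north-mid Strait fish of 2009 alone 56 members were above fall in winter. Members passing in the fall slope numbered 0 with the slide as a fixed term (0.0539% of all probes) and with quantile normalization (0.125%). They also numbered 0 with log2 of length (0.101%) and without the west coast fish of 2008 (0.0%). There were 2 with no slide term (0.395%), 3 with probes complete on every array (0.832% of these) and 38 with array weights (11.5%). Array weights gave 3 in the summer slope (0.857% of all probes), 3 in the slope difference (1.16%) and 2 in smolt origin (6.94%). In the fall coast the count was 8 with a fixed slide (2.76% of all probes) and 32 with array weights (15.5%). It was 24 without fall fish 766, 13 higher and 11 lower (8.66% of all probes, 876 higher and 1571 lower). In the summer coast it was 1 with no slide term (0.196% of all probes), 4 with quantile normalization (0.749%) and 1 with array weights (0.299%). It was 0 with fork length as a term (0.0816%) and 0 without summer fish 2314 (0.00626%). In the fall year it was 0 with a fixed slide (0.107%) and 39 with array weights (22.3%), and in the Strait summer year 2 (0.662%) and 1 (1.14%), with 10 under quantile normalization (4.64%) and 10 with each array scaled (3.98%). The coast difference between years gave 1 with each array scaled (0.127% of all probes). The causes were not tested. Most of these shares are over all probes tested, while the members came from the probes with a value on every array. Those passed more often in the main fall coast test (13.8% against 8.37%), so no excess among members is read from these counts. Positive slopes numbered 102 to 130 in fall and 136 to 147 in summer. No named probe turned its sign. Leaving out fish 766 or 2314, or the west coast fall fish of 2008, and counting positive slopes were chosen after seeing the data. No paired analysis was possible because each fish number occurs once.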

Other observations

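Fall fish 766, a wild female of the north-mid Strait in 2008 with a fork length of 25.4 cm, had the highest mean over the members of all fish, at 1.64. It held the highest value of its season in 54 of 150 members, and 131 members were above the pool in it. Fish 766 entered the fall means that chose the members, so its high values helped in the choice. These counts were not taken over all probes, and nothing is read from them.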
